A study of Mus musculus with 6 samples.

Results

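The genes described here are Runx1, Tal1, Lmo2, Lyl1, Erg, Fli1, Spi1, Etv6, Myb and Ikzf1, which encode transcription factors that act in blood stem and progenitor cells. They were taken as a list of known regulators and not by a rule on their measured values. The list was, however, chosen with earlier results of these data known. Their probes were found on the array through RefSeq accessions, which gave 10 of the 36799 genes on the array and 13 of its 55681 probes. An array identifier without a matched symbol was counted as a gene here. Of these 13 probes, 12 were well above background in a whole group and were tested, so that all 10 genes entered the comparisons.

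Gene expression was measured on 6 Agilent two-colour arrays in bone marrow hematopoietic stem cells (HSCs) of the mouse. On each array the Cy5 dye marked RNA of 1 CDK6-/- sample, which lacks the cell cycle kinase CDK6, and the Cy3 dye marked RNA of a pool of sorted wild-type HSCs that had received the same treatment. The CDK6-/- cells were untreated on 3 arrays and polyI:C-treated on 3 arrays, and the wild-type pools were likewise untreated or polyI:C-treated. PolyI:C is a synthetic double-stranded RNA that sets off an interferon response and brings resting HSCs into the cell cycle. The design addressed the part that CDK6 plays when stem cells are activated. The strain, the age and number of mice, the size of the pools and the dose and timing of polyI:C are not given in the sources used here, and the labels state the CDK6-/- genotype with no promoter or Cre, so the loss was not limited to HSCs as far as they state it. All samples were whole-transcriptome amplified before labelling, and neither treatment group had an array with the dyes exchanged. A bias of a dye for a probe therefore cannot be told apart from a genotype effect within a treatment. Where it is the same on all arrays, it cancels in the difference between the treatments, but a bias that changes with intensity need not cancel.

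The genotype ratio is log2 of the CDK6-/- over the wild-type signal, and the levels are log2 intensities of each dye. A gene was called where the adjusted p from limma, computed over 22617 genes, was under 0.05. Of these, 13625 have a symbol, and the rest, counted by their array identifiers, enter all shares of genes given below. Each pool was 1 control sample hybridised 3 times, so the spread between arrays holds the biological variation of the CDK6-/- samples alone, and the p-values leave out the variation between wild-type animals.

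Some facts of the whole series bear on all results. Between 47.0% and 76.5% of spots were well above background in Cy5 and between 54.4% and 75.6% in Cy3, the highest value in each dye being that of polyI:C array 3. The probe of the targeted gene, Cdk6, gave ratios of 0.40, -0.41 and 0.24 untreated, where it was not well above background in either dye. After polyI:C its ratios were -0.26, -0.44 and -1.28. Its place relative to the deletion is not given, so that it does not check the labels. Untreated array 3 and polyI:C array 3 stood apart in Xist, the RNA of the inactive X chromosome, with ratios of -3.98 and -3.42 against 0.42 to 1.87 on the other 4 arrays. PolyI:C array 3, alone on its slide, also correlated with the other polyI:C arrays at only 0.13 and 0.22 over all tested genes, whereas those arrays correlated at 0.56 with each other. Of 13 HSC marker genes, 13 were above background in both dyes on every array. Many markers of other cell types were above background as well, and their counts and values are given beside the genes they moved with. The HSC markers summed to 47183 to 52499 intensity units in the untreated pool and to 37291 to 46418 in the treated pool. The 12 granulocyte markers summed to more, 363527 to 512833 and 92634 to 121798. Such sums over different probes are not cell counts.

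The factors act together. Tal1 and Lyl1 encode closely related basic helix-loop-helix proteins that bind E-box DNA together with E proteins, and the LIM-only protein LMO2, which does not bind DNA itself, bridges them to GATA factors. ERG, FLI1, PU.1 (encoded by Spi1) and ETV6 are ETS proteins, RUNX1 is the DNA-binding partner of CBFB, and MYB and IKAROS (encoded by Ikzf1) govern progenitor expansion and lymphoid entry. In HSCs several of these proteins occupy the same enhancers, and their balance is known to guide the choice between self-renewal and the myeloid, lymphoid and megakaryocytic-erythroid fates.

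The promoters of Lyl1 and Tal1 are shown because these related genes differed in whether they passed the test, Lyl1 being called and Tal1 not. The windows hold the 200 bases upstream that end 51 bases before the transcript start, on the plus strand of the RefSeq assembly GRCm38.p6, at chr8:84701207-84701406 for Lyl1 and at chr4:115056176-115056375 for Tal1. Capitals mark matches on either strand. The motif searched for ETS proteins was GGAAGT. For GATA factors the letters searched were AGATAA. RUNX proteins were represented by the letters TGTGGT. The E-box of helix-loop-helix proteins was searched as CAGNTG, and none of the matches shown overlapped another.
Lyl1: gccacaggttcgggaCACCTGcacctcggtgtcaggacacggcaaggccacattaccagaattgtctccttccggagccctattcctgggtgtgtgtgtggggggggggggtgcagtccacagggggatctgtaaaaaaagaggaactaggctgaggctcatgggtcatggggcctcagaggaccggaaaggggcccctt
Tal1: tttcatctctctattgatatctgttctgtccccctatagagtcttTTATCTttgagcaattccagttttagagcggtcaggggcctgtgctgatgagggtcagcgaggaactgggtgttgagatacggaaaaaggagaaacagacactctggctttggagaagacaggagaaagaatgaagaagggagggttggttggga
The Lyl1 window holds 1 match, to the E-box, and the Tal1 window shown holds 1 match, to the GATA motif, each on the minus strand. A second Tal1 window in the table, at a later start, holds 0 matches and is not shown. Over all 32851 windows of this length in the table, 38.3% hold the E-box, 8.42% the GATA motif, 14.6% the ETS motif and 11.6% the RUNX motif. The table has 12 windows for 7 of the genes, and the ETS and RUNX letters are in 0 of these 12. No window was used for Spi1, Lmo2 and Fli1.

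In untreated cells Spi1 and Lyl1 were lower in CDK6-/- than in wild-type HSCs, and the other 8 factors were not called. Spi1 encodes PU.1, which is required for myeloid and B-lymphoid development and is also made in mature granulocytes, monocytes and B cells. Its ratios on the untreated arrays were -1.09, -1.01 and -1.63. The array with the lowest value is untreated array 3, and all arrays lay well below 0. The mean was -1.24 (SE 0.18, SD 0.34, n = 3 arrays, 95% confidence interval -1.65 to -0.84), a 2.37-fold lower signal, with an adjusted p of 0.00299 from limma. Lyl1 gave -0.79, -0.72 and -0.95, a narrow spread with no array near 0. Its mean was -0.82 (SE 0.16, SD 0.12, n = 3, interval -1.18 to -0.46), or 1.77-fold lower, with an adjusted p of 0.0108 from limma. Thus 2 of the 10 factors were called lower and 0 higher, where 13% of all genes tested were called, 9.94% lower and 3.05% higher. The median ratio of the 10 factors was -0.15, beside -0.05 over all genes. In such bulk samples, fewer cells that express a gene and less of its RNA per cell cannot be told apart.

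Both calls rest on the way the arrays were centred. When only the array medians were aligned, in place of an intensity-dependent (loess) correction, the median of all genes moved from -0.05 to 0.30 in untreated cells and from -0.02 to 0.21 after polyI:C. Spi1 then gave -0.52 (adjusted p from limma 0.0918) and Lyl1 -0.26 (adjusted p 0.364), while Lmo2 at 1.38 (adjusted p 0.000983) and Etv6 at 0.84 (adjusted p 0.0134) were called higher instead. That setting called 4879 of all 22617 genes higher and 1330 lower in untreated cells. Relative to the shifted median, Spi1 and Lyl1 still lay lower and Lmo2 and Etv6 higher. Without untreated array 3, Lyl1 stood at -0.76 with an adjusted p of 0.0610, and Spi1 stayed called.

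After polyI:C the same 2 factors lay on the other side of 0, though neither was called there. Spi1 gave ratios of 0.22, 0.32 and 0.49, with a mean of 0.34 (SE 0.18, SD 0.13, n = 3, limma adjusted p 0.459). Lyl1 gave 0.50, 0.43 and 0.27, with a mean of 0.40 (SE 0.16, SD 0.12, n = 3, limma adjusted p 0.319). The 3 polyI:C arrays of each gene lay above all 3 untreated arrays, with a gap wider than the range of either group. In polyI:C-treated cells 0 of 10 factors passed limma's threshold, where 0.977% of all genes tested did (0.327% higher and 0.65% lower), and 2 of 10, Lyl1 and Myb, had an unadjusted p under 0.05. With only the array medians aligned, 3 factors passed: Spi1 at 0.87 (limma adjusted p 0.0194), Lyl1 at 0.78 (0.0272) and Lmo2 at 0.81 (0.0321), the last with its sign turned from -0.12. That setting called 2347 of all 22617 genes higher and 238 lower after polyI:C, far more than the loess correction did.

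The change of the genotype ratio with polyI:C was tested as the difference between the treatment groups, in which a dye bias that is the same on all arrays cancels. Spi1 shifted up by 1.59 (SE 0.26, interval 1.01 to 2.16), a 3.00-fold change of the ratio, with a limma adjusted p of 0.0190. Lyl1 shifted up by 1.22 (SE 0.23, interval 0.71 to 1.73), a 2.33-fold change, with a limma adjusted p of 0.0307. No other factor was called, so that 2 of 10 passed upward and 0 downward, beside 1.8% of all genes tested (1.6% up and 0.199% down). The groups of arrays did not overlap for 4 factors, Spi1 and Lyl1 upward and Lmo2 and Etv6 downward, beside 22.7% of all genes (14.3% up and 8.44% down). The median difference over the 10 factors was -0.18, beside 0.04 over all genes.

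The sizes of these 2 differences moved little between arrays and settings, but the calls did not hold in all of them. Within slide 1, which held untreated arrays 1 and 3 and polyI:C array 1, Spi1 differed by 1.58 and Lyl1 by 1.37. Within slide 2, with 1 array of each treatment, the differences were 1.33 and 1.16. With the slide as a fixed block they were 1.47 and 1.28, each with a limma adjusted p of 0.122, and 0 of all genes tested were then called. Without untreated array 3 and polyI:C array 3, the arrays that stood apart in Xist, Spi1 differed by 1.32 and Lyl1 by 1.22, each with a limma adjusted p of 0.140, and again 0 genes were called in all. Leaving out untreated array 3 or any single polyI:C array left neither factor called, leaving out untreated array 1 left Spi1 called alone, and leaving out untreated array 2 left both called. Agilent's own processed signals gave 1.61 for Spi1 (adjusted p from limma 0.0542) and 1.21 for Lyl1 (0.0740). With the array medians aligned, Spi1 at 1.39 was called (adjusted p 0.0477) and Lyl1 at 1.05 was not (0.120).

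**Figure D1:**
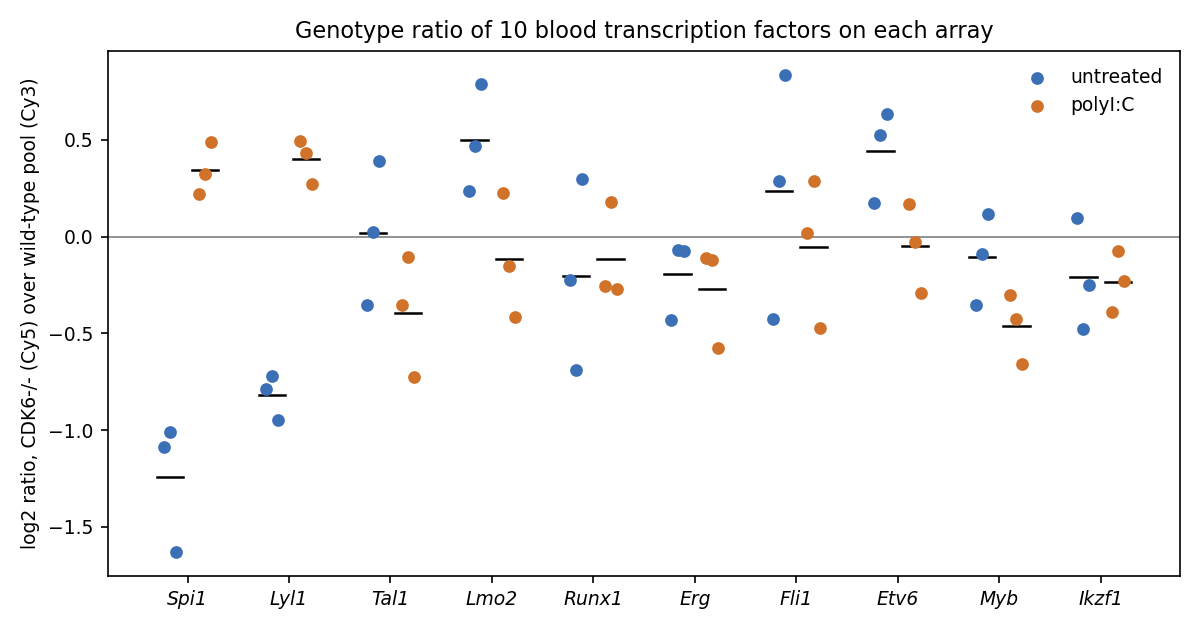
Log2 ratio of CDK6-/- over wild-type on each of the 6 arrays for the 10 factors, untreated and polyI:C arrays in separate colours, with a line at each group mean. Spi1 and Lyl1 lie below 0 on the untreated arrays (means -1.24 and -0.82) and above 0 on the polyI:C arrays (0.34 and 0.40), while most other factors overlap between the treatments.

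The separate dye levels show where the difference of Spi1 lay. The wild-type pool gave Spi1 levels of 14.00, 13.90 and 13.80 untreated and of 12.02, 11.96 and 12.12 after polyI:C. CDK6-/- cells gave 12.91, 12.89 and 12.17 untreated and 12.24, 12.28 and 12.60 after polyI:C. The pool hybridisations were thus far apart between treatments, whereas the CDK6-/- samples of the treatments overlapped. In order of the mean, the untreated pool (13.90 ± 0.10, SD, 3 hybridisations) was highest, followed by untreated CDK6-/- cells (12.66 ± 0.42, n = 3), polyI:C-treated CDK6-/- cells (12.38 ± 0.20, n = 3) and the polyI:C-treated pool (12.03 ± 0.08). Only the middle neighbours overlapped. The pool's change was -1.87, a 3.65-fold lower level, and 2.55% of all genes tested changed more in either direction. It has no test, since each pool is 1 sample. The change within CDK6-/- cells was -0.28 (interval -1.05 to 0.49, limma adjusted p 0.872).

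Lyl1 followed the same order. Its levels in the pool were 12.65, 12.79 and 12.71 untreated and 11.06, 11.33 and 11.32 after polyI:C, and in CDK6-/- cells they were 11.86, 12.07 and 11.76 untreated and 11.56, 11.76 and 11.59 after polyI:C. No neighbours in this order overlapped, the untreated pool (12.72 ± 0.07) being highest, then untreated CDK6-/- cells (11.90 ± 0.16), polyI:C-treated CDK6-/- cells (11.64 ± 0.11) and the polyI:C-treated pool (11.23 ± 0.15). The CDK6-/- groups, though, all but touched, at 11.76. The pool's change was -1.48, a 2.80-fold lower level, a size passed by 4.67% of all genes, and CDK6-/- cells changed by -0.26 (interval -0.94 to 0.41, limma adjusted p 0.860). Other normalizations gave pool changes from -1.91 to -1.58 for Spi1 and from -1.49 to -1.22 for Lyl1, and within slides 1 and 2 they were -1.88 and -1.94 for Spi1 and -1.62 and -1.46 for Lyl1.

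**Figure D2:**
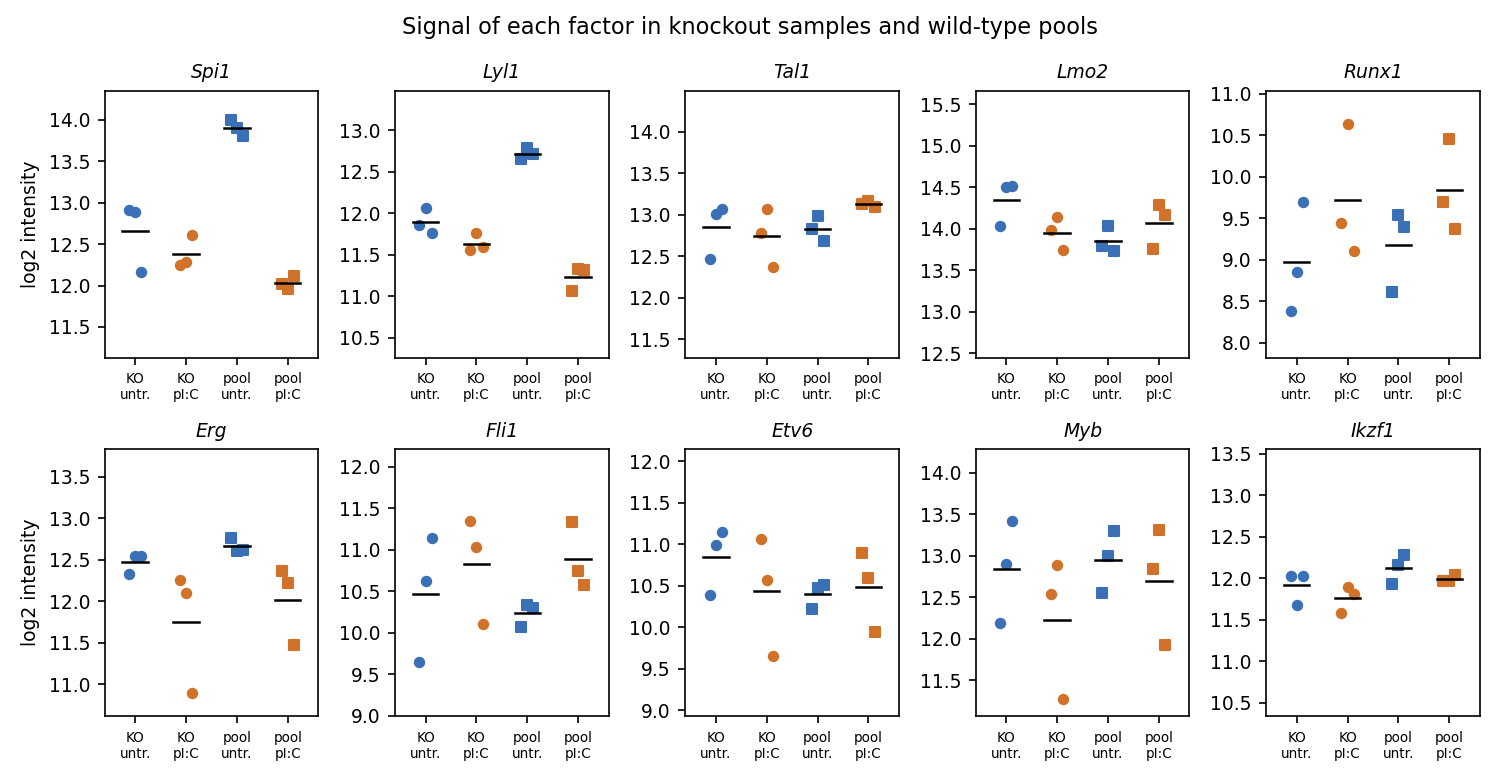
Log2 level of each factor in CDK6-/- cells (KO, circles, Cy5) and in the wild-type pool (squares, Cy3), untreated (untr.) and polyI:C-treated (pI:C), with a black line at the mean of the 3 arrays. All panels span the same number of log2 units, and the pool squares of Spi1 and Lyl1 drop most between treatments, by 1.87 and 1.48.

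The ratios of markers of several mature cell types, though not all, rose with polyI:C like those of Spi1 and Lyl1. Only the granulocyte and the monocyte medians lay below 0 on all untreated arrays and above 0 on all polyI:C arrays. All 12 granulocyte markers, among them the granule genes Mpo and Elane and the alarmin genes S100a8 and S100a9, were above background on every array, with median ratios of -0.66, -0.19 and -1.57 untreated and 0.57, 0.70 and 1.34 after polyI:C. Their summed pool level ran from 363527 to 512833 intensity units untreated and from 92634 to 121798 after polyI:C, and in CDK6-/- cells from 177219 to 290908 and from 191706 to 248612. Of the 12, limma called 4 lower in untreated CDK6-/- cells, 0 after polyI:C and 4 shifted up with polyI:C. Of all genes, 9.94% were called lower untreated and 1.6% shifted up. With array medians aligned, 0 were called untreated, where the median over the markers turned from -0.79 to 0.16, 12 were called higher after polyI:C and 3 shifted up. Of all 22617 genes, that setting called 4879 higher untreated, 2347 higher after polyI:C and 204 shifted up. The granulocyte markers thus showed the same order of groups at the extremes as Spi1, with the untreated pool highest and the polyI:C-treated pool lowest. The 10 B-cell markers, all above background untreated and 3 to 9 of them after polyI:C, had median ratios of -1.50, -1.16 and -2.14 untreated and -0.27, 0.18 and 0.05 after polyI:C, with summed pool levels of 42140 to 43842 and 14219 to 26326. In untreated cells 7 of these 10 were called lower. Monocyte and macrophage markers (10 on the array, 9 or 10 above background) had medians of -0.60, -0.06 and -1.10 untreated and 0.46, 0.21 and 1.25 after polyI:C. Among 10 endothelial and stromal markers, 8 or 9 were above background untreated and 5 to 9 after polyI:C, and they had medians of -0.92, -0.84 and -1.47 untreated and -0.13, -0.21 and -0.11 after polyI:C, with 7 of 9 tested called lower untreated. Erythroid markers had median ratios of -0.37 untreated and -0.95 after polyI:C, lower in both. Limma called 4 of 12 lower in each, beside 9.94% and 0.65% of all genes. T and NK cell markers had medians of 0.04 and 0.13. The 11 megakaryocyte markers had medians of -0.26 and -0.01, with 3 called lower untreated and 2 shifted up, Ppbp by 2.06 and Itgb3 by 1.62. Their summed pool level ran from 18553 to 19454 untreated and rose to 32791 to 41871 after polyI:C, unlike that of the granulocyte markers. Without both arrays 3, none of their shifts was called. The HSC markers themselves had medians of 0.06, 0.12 and 0.38 untreated and 0.21, 0.23 and -0.29 after polyI:C, and none of the 13 was called by limma in any comparison. With array medians aligned, 6 of the 13 were called higher untreated (median 0.69) and 2 after polyI:C (median 0.54). The medians of all genes in that setting were also raised, at 0.30 and 0.21. The part of the cells that these markers stand for in the values of Spi1 and Lyl1 was not tested.

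**Figure D3:**
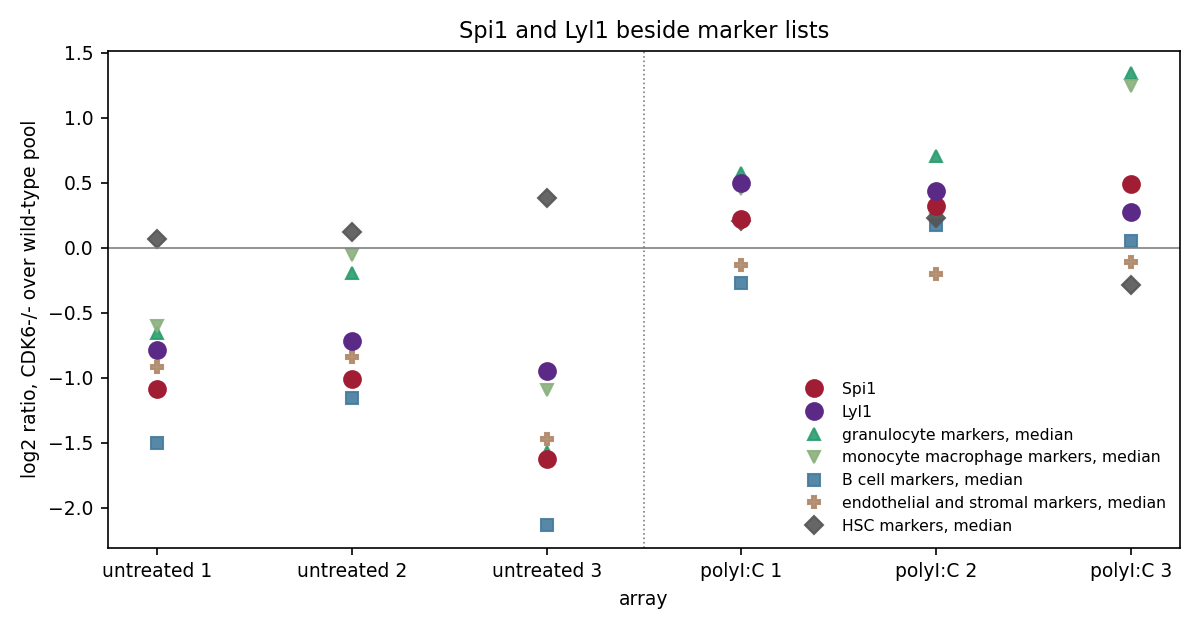
Log2 ratio of Spi1 and Lyl1 on each array beside the median ratio of the HSC, granulocyte, monocyte and macrophage, B-cell and endothelial and stromal marker lists. On the untreated arrays the granulocyte median (-0.66, -0.19 and -1.57) is below 0 like Spi1 and on the polyI:C arrays (0.57, 0.70 and 1.34) above it, whereas the HSC median stays between -0.29 and 0.38.

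Tal1 and Lmo2, the partners of Lyl1 in the stem-cell complex, did not pass the test in any of the comparisons. Tal1, needed for blood formation and red-cell and platelet maturation, gave -0.36, 0.03 and 0.39 untreated and -0.36, -0.10 and -0.72 after polyI:C. The untreated arrays straddled 0 (mean 0.02, interval -0.43 to 0.47), and all 3 polyI:C arrays lay below it (mean -0.39, limma adjusted p 0.439). Lmo2 gave 0.24, 0.47 and 0.79 untreated and 0.23, -0.15 and -0.42 after polyI:C. All untreated arrays were above every polyI:C array, the closest values being 0.24 and 0.23. The untreated mean was 0.50 (SE 0.19, SD 0.28, interval 0.07 to 0.92, limma adjusted p 0.116) and the difference was -0.61 (SE 0.27, interval -1.22 to -0.01, limma adjusted p 0.293). Lmo2 levels were 14.35 ± 0.28 and 13.95 ± 0.20 in CDK6-/- cells and 13.85 ± 0.16 and 14.07 ± 0.28 in the pool, untreated and treated, and all neighbours in that order overlapped. Tal1 levels were 12.85, 12.74 and 12.83 in untreated and treated CDK6-/- cells and the untreated pool, which overlapped, and 13.13 ± 0.04 in the treated pool, which lay above them.

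Among the other ETS factors, none was called. Etv6, a repressor needed for HSC maintenance in adult marrow, gave 0.18, 0.52 and 0.63 untreated and 0.17, -0.03 and -0.29 after polyI:C. As for Lmo2, every untreated array lay above every polyI:C array, here by 0.18 against 0.17 at the closest. The untreated mean was 0.44 (SE 0.18, SD 0.24, limma adjusted p 0.132) and the difference -0.49 (SE 0.25, limma adjusted p 0.364). Erg, which maintains HSC self-renewal, gave -0.43, -0.07 and -0.07 untreated and -0.11, -0.12 and -0.57 after polyI:C. It lay below 0 on all 6 arrays with overlapping groups, and its means were -0.19 (limma adjusted p 0.529) and -0.27 (0.572). Erg levels were 12.66 ± 0.08 in the untreated pool, apart from the other groups, against 12.47 ± 0.12 in untreated CDK6-/- cells, 12.02 ± 0.48 in the treated pool and 11.75 ± 0.74 in treated CDK6-/- cells. The second Erg probe was not well above background on any array. Fli1, which drives megakaryocyte genes, ranged from -0.43 to 0.84 untreated and from -0.47 to 0.29 after polyI:C, so that its arrays disagreed in sign within both groups. The array at 0.84 was untreated array 3 and the one at -0.47 polyI:C array 3.

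Runx1, required for the emergence of HSCs and for megakaryocyte and lymphoid maturation, was not called, and its probes disagreed. The brighter probe gave -0.22, -0.69 and 0.30 untreated and -0.26, 0.18 and -0.27 after polyI:C, with means of -0.21 (SD 0.50) and -0.12. The other probe gave -0.50, 0.47 and -0.11 untreated and 0.58, 0.35 and 0.58 after polyI:C. Its polyI:C mean of 0.50 (SE 0.21) had a limma adjusted p of 0.352 over all probes. The direction of Runx1 after polyI:C therefore depends on the probe, and with the mean of both probes it was 0.19. Runx1 levels varied widely between arrays of a group, with SDs from 0.50 to 0.80 log2 units, and all neighbours overlapped.

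Myb, which sustains progenitor division, gave -0.35, -0.09 and 0.12 untreated and -0.30, -0.42 and -0.66 after polyI:C. The treated arrays all lay below 0 (mean -0.46, SE 0.17, SD 0.18, limma adjusted p 0.287), but the groups overlapped and the difference of -0.35 had an adjusted p of 0.524. Ikzf1, a zinc finger regulator of lymphoid priming, gave 0.10, -0.48 and -0.25 untreated and -0.39, -0.07 and -0.23 after polyI:C. Its means of -0.21 and -0.23 were close, and the difference of -0.02 was the smallest in size among the factors. The second Ikzf1 probe gave means of 0.15 and -0.29, so that its untreated sign differed from that of the first. Over the list, 3 of 10 factors lay below 0 on all untreated arrays (Spi1, Lyl1 and Erg, beside 28.2% of all genes) and 2 above (Lmo2 and Etv6, beside 20.9%). After polyI:C, 4 lay below 0 on all arrays (Tal1, Erg, Myb and Ikzf1, beside 21.5%) and 2 above (Spi1 and Lyl1, beside 16.4%).

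**Figure D4:**
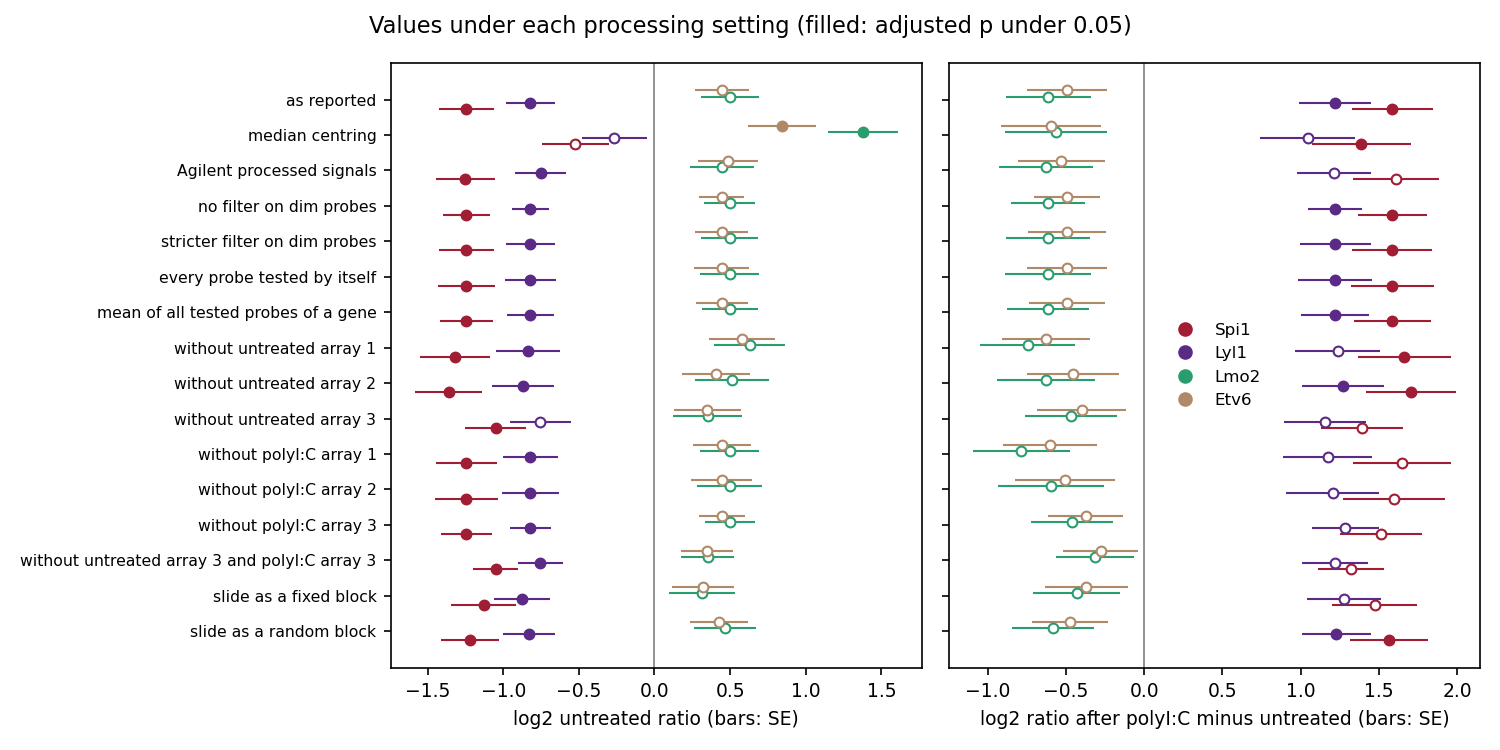
Untreated genotype ratio (left) and difference of the ratio between polyI:C and untreated arrays (right) for Spi1, Lyl1, Lmo2 and Etv6 under each processing setting, in log2 units with bars for standard errors, filled where limma's adjusted p was under 0.05. On the right Spi1 stays between 1.32 and 1.70 and Lyl1 between 1.05 and 1.29, with the filled points lost in several settings; on the left median centring moves all 4 genes up and fills Lmo2 (1.38) and Etv6 (0.84) only.

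Within CDK6-/- cells the response to polyI:C itself was tested on the Cy5 levels. Of the 10 factors, 0 were called by limma and 0 had an unadjusted p under 0.05, beside 0.164% of all genes called (0.106% higher and 0.0575% lower). Runx1 had the change of the largest size at 0.75 (limma adjusted p 0.697), followed by Erg at -0.72 (0.619) and Myb at -0.61 (0.780). The arrays of the treatments did not overlap for 2 factors, Lyl1 and Erg, both downward, beside 16.8% of all genes. The median change of the factors was -0.27, beside 0.03 over all genes. In the pool, where there is no test, the hybridisations did not overlap for 3 factors downward (Spi1, Lyl1 and Erg at -0.64, beside 23.1% of all genes) and 2 upward (Fli1 at 0.65 and Tal1 at 0.30, beside 19.2%). Runx1 at 0.66, Lmo2 at 0.22, Etv6 at 0.08, Ikzf1 at -0.13 and Myb at -0.26 overlapped.

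Genes that work with these factors were read from lists of partners, relatives and known targets. Of 17 partners, limma called 1 higher and 1 lower in untreated CDK6-/- cells, Tcf4, an E protein that pairs with TAL1 and LYL1, at 0.75 (adjusted p 0.0206) and Gata1, the erythroid GATA factor, at -0.67 (adjusted p 0.0440). The partners' median was -0.03, and 13% of all genes were called untreated, so that the counts of partners and of relatives lie near the background. Of 20 tested relatives, 1 was higher, the ETS gene Etv5 at 1.25 (limma adjusted p 0.00508), and 2 were lower, the lymphoid ETS genes Spib at -1.47 (0.0137) and Ets1 at -1.42 (0.00276), around a median of 0.02. Of 23 other blood factors 0 were higher and 6 lower, with a median of -0.19. Among those 6 were the B-cell factors Pax5 at -2.19 (limma adjusted p 0.00114) and Ebf1 at -1.45 (0.0313), the erythroid factor Klf1 at -1.16 (0.00969) and the monocyte factor Irf8 at -0.98 (0.0350). Pax5 and Ebf1 are also on the B-cell marker list described above. Etv5, Ets1 and Pax5 kept their calls in every setting, whereas with array medians aligned Gata1 stood at -0.24 (adjusted p 0.42) and Irf8 at -0.54 (0.138). Under that setting 6 partners were higher and 0 lower, 6 relatives higher and 2 lower, and 5 other blood factors higher and 3 lower. Of all 22617 genes, 4879 were then higher and 1330 lower. Without both arrays 3, limma called 0 partners, 1 relative in each direction and 2 other factors, both lower.

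The known targets of the factors were tested likewise. Of all genes, 9.94% were called lower and 3.05% higher untreated, and 0.65% lower and 0.327% higher after polyI:C. The ratio shifted up with polyI:C for 1.6%. The untreated counts of these short lists are not far from those shares. Of 11 myeloid targets of PU.1 and RUNX1, limma called 2 lower untreated, the lysozyme gene Lyz2 at -1.24 (adjusted p 0.00869) and Cybb, a subunit of the phagocyte oxidase, at -1.14 (0.0158). With polyI:C 3 of the 11 shifted up, Lyz2 by 2.18 (0.0166), Cybb by 1.80 (0.0349) and Ncf1, another oxidase subunit, by 1.34 (0.0286). The list's median difference was 1.12, beside 0.04 over all genes. Not all targets moved this way. The differences of Csf1r (-0.32), Itgam (-0.25) and Csf3r (-0.22) were negative and not called, and those of all other targets on the list were positive. Itgam stood at 0.70 untreated (limma adjusted p 0.127). These targets include genes of granulocytes and monocytes. Mpo, Elane, Csf1r, Cd68 and Fcgr1 are also on the granulocyte or monocyte marker lists, so the lists are not independent. The median differences of those 2 marker lists were 1.69 and 1.21, and the part of those cells was not tested. With array medians aligned the untreated values were -0.59 for Lyz2 (limma adjusted p 0.0779) and -0.39 for Cybb (0.248), and 4 myeloid targets were called higher. The same setting called 4879 of all 22617 genes higher untreated. Of 11 megakaryocyte targets, 1 was higher untreated, Vwf at 0.75 (limma adjusted p 0.0263), and 2 were lower, the integrin gene Itgb3 at -1.37 (0.00280) and Gp1bb at -0.73 (0.0444). Itgb3 shifted up with polyI:C by 1.62 (limma adjusted p 0.0223), and within CDK6-/- cells Itgb3 at 3.03 (0.0193) and its partner Itga2b at 3.14 (0.0494) rose. The response of Itga2b was not called in any of 6 fits that left out 1 array and that of Itgb3 in 1 of 6, and without both arrays 3 limma called neither.

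Of 10 erythroid targets, 2 were lower untreated by limma, Klf1 among them, and 2 were lower after polyI:C, Klf1 at -1.19 (limma adjusted p 0.0419) and Rhag, a membrane protein gene of red cells, at -1.68 (0.0282). Within CDK6-/- cells the anion exchanger gene Slc4a1 fell by 3.75 (limma adjusted p 0.0257) with polyI:C. Without both arrays 3, limma called 0 erythroid targets after polyI:C and 0 in the response, and in fits without 1 array Klf1 after polyI:C was called in 1 of 6, Rhag in 2 and Slc4a1 in 1. Of 7 stem and progenitor targets, 1 was higher untreated, the survival gene Bcl2 at 0.69 (0.0266), while Kit, the stem cell factor receptor gene, stood at 0.45 (0.258). With array medians aligned 5 of these 7 were higher untreated, beside 4879 of all 22617 genes. Without both arrays 3 none was called. Of 5 tested lymphoid targets 0 were called in any comparison, with medians of -0.81 untreated and 0.06 after polyI:C. Among the factor lists, the difference between treatments was called for Ets1 at 1.53 (limma adjusted p 0.0309) and for Cebpe at 1.75 (0.0439), Id2 at 1.56 (0.0216) and Cebpa at 1.09 (0.0461), of which Cebpe and Cebpa drive granulocyte formation. None of the treatment differences in these lists was called without both arrays 3, and the call for Cebpa was lost whichever single array was left out.

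The genes whose 12 levels most resembled those of each factor were found by the root mean square distance of centred log2 levels over 12 values, that is both dyes of 6 arrays. Only the 13625 tested genes with a symbol were searched, and the medians and ranks are over these. For Lyl1 the nearest were Coro1a, a leukocyte actin regulator, at a distance of 0.0811 and Upb1 at 0.124, beside a median of 0.697. For Spi1 the nearest included Trpm2 at 0.189, beside a median of 0.846. Lyl1 had rank 27 among the genes with a symbol by distance from Spi1, and Spi1 had rank 82 for Lyl1. No other factor had another member of the list nearer than rank 181, which Tal1 held for Lmo2. The nearest gene was Qk for Tal1 (0.0989), Anapc4 for Lmo2 (0.153), Cyfip2 for Erg (0.112), Sfxn1 for Fli1 (0.187), Tedc1 for Etv6 (0.157), Dync1i2 for Myb (0.182), Tln1 for Ikzf1 (0.126) and Arfgef1 for Runx1 (0.258). These distances are descriptions, since the values of an array share its labelling and normalization.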

How the data were processed

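Scanner files of 6 two-colour arrays hold spot and background intensity, which the authors deposited unnormalized from Agilent Feature Extraction 11.5.1.1, per the file headers; 5 of 6 headers name mm9. The deposited processed intensity was used in an alternative, the deposited log10 ratio (Cy5 over Cy3) only to check direction, and the other deposited columns, the detection flags, in filters. The authors' deposited value table equals the log2 ratio of processed signals within 2.52e-06 for the 55249 probes with 1 spot, with no further centring of these. Per the labels, RNA was amplified and dye-labelled, and array number limits the precision.

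Median signals were corrected by normexp (offset 50), loess-normalized within arrays with control and outlier spots at weight 0 (0.657% of spots left out, 0 saturated), and tested with limma 3.58.1 in R 4.3.3 (means per treatment, eBayes with 4 residual degrees of freedom, Benjamini-Hochberg over 22617 genes, threshold 0.05). Levels used Aquantile. A probe was tested where it was well above background in a dye on all 3 arrays of a group (31782 of 55681), and the brightest tested probe stood for a gene. Of 23839 RefSeq accessions, 22244 matched a symbol of GRCm38.p6. The fit was tested on simulated data. Alternatives covered background, normalization, filters, probe choice, slide blocks and left-out arrays. Replicate arrays were numbered in accession order. With 3 against 3 samples, the smallest exact permutation p is 0.1, so the fit over all genes was used.

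Named were all members, list genes past the threshold (at most 4 by size a list and comparison, or the 2 brightest where fewer pass) and the nearest genes by level. The members and lists were chosen with earlier results of these data known. Nothing in the labels states separate animals for each CDK6-/- sample beyond calling them biological replicates, and 0 value columns of other samples were left out. Some genes that this rule names are not reported here.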

Additional observations from a re-analysis of the deposited data

Results flagged for a closer look

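With the processing used throughout, the genotype ratios of Spi1 and Lyl1 differed between untreated and polyI:C-treated cells by a test of the difference itself. For Spi1, the gene of the ETS factor PU.1, the ratio of CDK6-/- over wild-type was 1.59 log2 units higher after polyI:C (limma adjusted p 0.0190), with all 3 polyI:C arrays above all 3 untreated arrays. For Lyl1, the gene of a helix-loop-helix factor, it was 1.22 log2 units higher (limma adjusted p 0.0307), again with no overlap. Over all genes tested, 1.8% were called in this comparison. The limma adjusted p of both genes was 0.140 without untreated array 3 and polyI:C array 3. Neither gene was called with the slide as a fixed block, with Agilent processed signals or without any single polyI:C array. The p-values leave out the variation between wild-type pools, since the pool of each treatment was not replicated. With polyI:C the pool level changed by -1.87 for Spi1 and -1.48 for Lyl1, and that of CDK6-/- cells by -0.28 and -0.26.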

How the results depend on the processing

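The members' results under the alternatives, values within slides included, came to 650. Of these, 573 kept their direction and side of the threshold or, within slides, moved less than the spread between replicates. Among the fits 43 changed sign (Lmo2 after polyI:C with median centring also gained a call), and 19 lost and 4 gained a call with the same sign. Within slides 11 moved by more than that spread. A turned sign within slides was counted only for called factors, so the 43 leave out those of the others. The difference turned within slide 1 for Runx1 (-0.29) and Erg (0.14) and within slide 2 for Ikzf1 (0.41). The response turned within slide 1 for Tal1 (0.0066) and Etv6 (0.30) and within slide 2 for Tal1 (0.054) and Ikzf1 (0.21). In untreated cells 2 factors were called except when 1 array was left out (1 to 2), but with median centring these were Lmo2 and Etv6, both higher, and not Spi1 (-0.52) and Lyl1 (-0.26). It went from 0 to 3 after polyI:C with median centring. For the difference between treatments it was 1 with median centring, 0 with Agilent processed signals, 0 without both arrays 3, 0 with the slide as a fixed block, 0 to 2 when 1 array was left out, and 2 with the slide as a random block. The response within CDK6-/- cells stayed at 0 in every setting run.

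Under median centring the untreated values turned to 0.12 for Runx1, 0.40 for Erg, 0.54 for Myb and 0.30 for Ikzf1, and the polyI:C values turned to 0.13 for Runx1, 0.29 for Tal1, 0.81 for Lmo2, 0.21 for Erg, 0.27 for Fli1, 0.25 for Etv6, 0.13 for Myb and 0.22 for Ikzf1. Calls over all genes went from 689 higher and 2248 lower to 4879 and 1330 untreated, from 74 and 147 to 2347 and 238 after polyI:C, and from 361 and 45 to 204 and 37 for the difference, and with Agilent processed signals they were 572 and 1396, 9 and 25, and 158 and 28. Without both arrays 3, signs turned for Tal1 (-0.16) and Fli1 (-0.068) untreated, Lmo2 (0.036), Fli1 (0.15) and Etv6 (0.071) after polyI:C, Erg (0.13) and Fli1 (0.22) in the difference, and Tal1 (0.17), Etv6 (0.13) and Myb (0.15) in the response. With the slide as a fixed block they turned for Tal1 untreated (-0.13), Erg in the difference (0.058) and Tal1 in the response (0.027). With scale normalization the response turned for Tal1 (0.12) and Ikzf1 (0.071), and with the mean of probes Runx1 after polyI:C was 0.19.

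Leaving out 1 array, untreated values ran from -0.22 to 0.015 for Myb, -0.46 to 0.038 for Runx1, -0.16 to 0.21 for Tal1 and -0.068 to 0.56 for Fli1. PolyI:C values ran from -0.29 to 0.036 for Lmo2, -0.22 to 0.15 for Fli1 and -0.16 to 0.071 for Etv6. Differences ran from -0.16 to 0.13 for Ikzf1, -0.15 to 0.34 for Runx1, -0.62 to 0.014 for Fli1 and -0.20 to 0.074 for Erg, and responses from -0.049 to 0.72 for Fli1 and -0.30 to 0.065 for Tal1. The cause of these changes was not tested. No paired analysis was possible because the labels give the arrays of the treatment groups no shared replicate numbers.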
